A study of Mus musculus with 7 samples.

Results

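Dense windows are 100 kb stretches of the mouse autosomes in which regions enriched for 5-methylcytosine (5mC) lie unusually close together in cultured hippocampal neurons. The 19 autosomes were cut into fixed windows of 100 kb from position 0, and a window was kept when the midpoints of at least 20 active regions fell in it. An active region is a stretch called as enriched in at least 1 library, after the calls of all libraries were merged. The rule kept 361 of the 22197 autosomal windows that held any region (1.63%). They held 8366 of the 130882 autosomal active regions (6.39%), out of 133337 on all chromosomes.

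The cells were hippocampal neurons of C57BL/6J mouse embryos at stage E18.5, grown for 11 days in vitro in medium that received AraC, an inhibitor of dividing cells. They were left untreated (3 libraries) or exposed to 55 mM KCl for 4 h (3 libraries), which depolarises neurons, and 1 pooled input library was not analysed here. DNA fragments carrying 5mC were pulled down with an antibody and sequenced (MeDIP-seq), and a company processed the samples and the reads. Whether the libraries of a group stem from separate cultures is not stated in the labels, so p-values measure the spread between libraries, which may be technical. The assay measures no expression, so the labelled cell type was not checked against marker genes.

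In mammalian DNA 5mC sits mostly on the dinucleotide CG. Gene bodies and repeats are usually methylated, whereas promoters rich in CG usually stay free of the mark. An antibody pull-down enriches a stretch more strongly the more methylated CG it holds, so a called region needs both methylation and CG.

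Most of the 484 RefSeq promoters that start in a dense window carried no active region, and 6 promoter sequences (GRCm38.p6) show both situations. A promoter here is the stretch from 250 bases before to 50 bases after a start site, given 5′ to 3′ with every CG in capitals. CG reads the same on both strands, and 95.6% of all 20084 autosomal promoters hold at least 1. The first 2 lay wholly inside an active region. They belong to Mov10l1, a germline RNA helicase of the piRNA pathway, and to Acacb, an acetyl-CoA carboxylase that restrains fatty acid oxidation. Mov10l1 is at chr15:88982744-88983043 on the plus strand with 20 CG, and Acacb is at chr5:114165268-114165567 on the plus strand with 10 CG, inside the body of the gene, which begins at 114146321.
Mov10l1: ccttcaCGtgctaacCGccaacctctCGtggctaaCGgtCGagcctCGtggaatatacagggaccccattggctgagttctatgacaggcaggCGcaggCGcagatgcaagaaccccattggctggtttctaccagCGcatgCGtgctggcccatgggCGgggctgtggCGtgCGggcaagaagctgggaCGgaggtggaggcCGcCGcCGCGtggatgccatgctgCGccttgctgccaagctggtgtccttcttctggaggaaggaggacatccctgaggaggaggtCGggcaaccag
Acacb: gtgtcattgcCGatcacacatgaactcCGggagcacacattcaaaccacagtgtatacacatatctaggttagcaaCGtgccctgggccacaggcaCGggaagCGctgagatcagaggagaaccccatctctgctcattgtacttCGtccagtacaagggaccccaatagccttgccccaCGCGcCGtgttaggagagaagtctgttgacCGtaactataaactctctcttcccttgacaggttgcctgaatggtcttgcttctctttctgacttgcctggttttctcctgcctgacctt

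Pax6, a transcription factor of eye and forebrain development, and Rpl22, a protein of the large ribosomal subunit, each have a start site under an active region and another start site without one in the same window. The covered Pax6 promoter is at chr2:105682213-105682512 with 16 CG and the free one at chr2:105668646-105668945 with 18 CG. The covered Rpl22 promoter is at chr4:152324186-152324485 with 8 CG and the free one at chr4:152325476-152325775 with 15 CG. All 4 are on the plus strand. The free Pax6 promoter lay 597 bases from the nearest active region, and the free Rpl22 promoter 907 bases from the one that covers the other start. These promoters were picked with the calls known.
Pax6 covered: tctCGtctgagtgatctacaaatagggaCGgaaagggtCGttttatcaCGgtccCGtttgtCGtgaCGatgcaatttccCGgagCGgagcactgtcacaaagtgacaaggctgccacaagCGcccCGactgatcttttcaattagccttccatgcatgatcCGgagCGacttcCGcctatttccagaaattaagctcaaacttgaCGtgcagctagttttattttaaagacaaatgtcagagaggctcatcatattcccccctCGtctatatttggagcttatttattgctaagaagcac
Pax6 free: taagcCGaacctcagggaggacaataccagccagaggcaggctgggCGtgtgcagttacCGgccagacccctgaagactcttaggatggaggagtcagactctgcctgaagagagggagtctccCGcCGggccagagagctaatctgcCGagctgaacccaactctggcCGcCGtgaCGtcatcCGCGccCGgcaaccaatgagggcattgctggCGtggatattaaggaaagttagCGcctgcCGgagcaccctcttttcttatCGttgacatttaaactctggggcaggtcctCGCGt
Rpl22 covered: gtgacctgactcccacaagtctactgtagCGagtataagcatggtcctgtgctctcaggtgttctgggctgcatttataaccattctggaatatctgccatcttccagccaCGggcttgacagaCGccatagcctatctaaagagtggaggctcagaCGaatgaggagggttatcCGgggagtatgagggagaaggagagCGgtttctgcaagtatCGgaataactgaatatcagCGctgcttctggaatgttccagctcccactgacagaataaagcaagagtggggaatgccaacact
Rpl22 free: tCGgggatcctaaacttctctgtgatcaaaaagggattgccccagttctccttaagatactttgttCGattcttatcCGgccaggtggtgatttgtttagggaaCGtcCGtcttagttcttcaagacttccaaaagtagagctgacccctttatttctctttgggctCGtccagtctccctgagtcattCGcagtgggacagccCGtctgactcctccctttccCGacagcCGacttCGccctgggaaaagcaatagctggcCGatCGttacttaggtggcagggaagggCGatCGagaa

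The summit height of a region is the value at its highest point in a library, as deposited. Over the 6 libraries, in the order untreated 1, 2 and 3 and KCl 1, 2 and 3, the region over the Mov10l1 promoter had heights of 98, 107, 79, 96, 85 and 57. This region also reaches into Mlc1. The region over the Pax6 promoter had 29, 26, 21, 30, 18 and 10, and that over the Acacb promoter had 24, 37, 24, 32, 20 and 18. The region over the Rpl22 promoter was called in only 4 libraries, with 12 and 15 in untreated 1 and 2 and 14 and 13 in KCl 1 and 2. All 4 covered promoters showed overlapping heights in untreated and KCl libraries, and Mov10l1 stood highest in each library. Over all dense windows, a region overlapped 30 of the 484 promoters (6.20%), compared with 3.04% of all autosomal promoters. Dense windows hold more regions by the rule, and as a share of regions the order was the other way. A promoter was overlapped by 0.352% of dense-window regions, compared with 0.468% of all autosomal regions. The overlapped promoters held a median of 8 CG, all 484 in dense windows a median of 18 CG, and all autosomal promoters 14 CG. The 581 promoters overlapped by a region outside dense windows also held a median of 8 CG. Chromosome 18 is not in the promoter table used, so start sites were examined on 18 autosomes.

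Windows became fewer as the number of regions per window rose, with no gap at 20. Windows with exactly 20 regions numbered 86 and those with 19 regions, just outside the rule, 101. These neighbours were alike in covered length (medians of 8226 and 7856 bp), median region height (14.0 in each) and the share of regions called in all 6 libraries (24.3% and 25.8%). A dense window held a median of 22 regions and at most 38, and its regions covered a median of 9279 bp, from 6793 to 20533 bp. Since the rule chose windows by their region calls, the values of dense windows against other windows are given without a test.

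**Figure D1:**
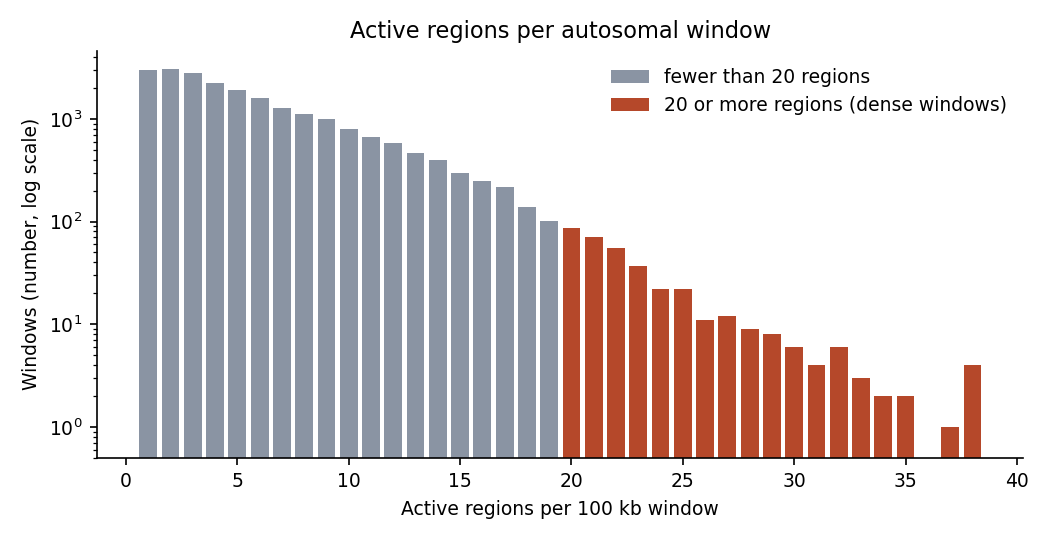
Number of autosomal 100 kb windows (vertical axis, log scale) by the number of active regions whose midpoints they hold (horizontal axis). The 361 windows with 20 or more regions (red) form the end of a continuous distribution, and 38 was the highest number in a window.

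Regions in dense windows were longer and more often called in every library, but little higher than regions elsewhere. Their median length was 394 bp, compared with 373 bp in windows with 10 to 19 regions and 344 bp in windows with 1 to 9. The median gap between neighbours was 2282 bp, compared with 4310 and 10034.5 bp, which follows from the rule. The mean height of a region over the libraries that called it had a median of 14.0, compared with 13.5 and 13. Of the 8366 regions, a call in each of the 6 libraries was present for 2113 (25.3%) and a call in only 1 library for 2091. In windows with 10 to 19 regions 22.4% were called in all 6, and in windows with 1 to 9 regions 18.7%. Height rose with the number of libraries that made the call, from a median of 11.0 for regions called in 1 library to 25.8 for those called in all 6. A region with a low summit is thus often the call of a single library, and dense windows mixed both kinds. Within a dense window the heights had a median coefficient of variation of 54.1%, and all but 2 windows held at least 1 region called in all 6 libraries.

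Dense windows mostly followed gene bodies. Of their regions 72.9% lay in the body of a protein-coding gene, compared with 59.5% in windows with 10 to 19 regions, 44.9% in windows with 1 to 9 and 52.3% of all autosomal regions. In 116 windows every region lay in a gene body, and in 49 windows none did. Start sites were not where the regions gathered. Only 1.57% of dense-window regions came within 1 kb of a protein-coding start, compared with 2.03% and 1.49% in the sparser windows. Dense windows without any protein-coding gene were 45 (12.5%), compared with 33.6% of all windows, and 72 (19.9%) lay wholly inside a single gene, compared with 14.7%. Windows with 5 or more genes were also more frequent, at 10.5% compared with 4.45%. Of windows with 10 to 19 regions, 16.2% had no protein-coding gene, 12.4% lay inside a single gene and 9.95% had 5 or more genes. Gene-rich windows were thus about as frequent among these as among dense windows. Very long genes and gene-rich stretches were thus both found among them.

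The windows were unevenly spread over the genome. Chromosome 4 held 46 (3.31% of its windows with a region), followed by chromosome 5 with 40, chromosome 8 with 34 and chromosome 2 with 33. Chromosome 3 held 6 (0.426%), as few as the much shorter chromosome 18. Of the 361 windows, 123 (34.1%) lay within 10 Mb of the last active region of their chromosome, compared with 8.15% of all windows with a region. All 8 windows of chromosome 16 and 10 of the 12 of chromosome 19 were in that stretch, as were 18 of the 46 of chromosome 4, whereas none of the 14 of chromosome 7 was. The position of a window was not part of the rule, but neighbouring windows share their base composition and gene content and are not independent.

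**Figure D2:**
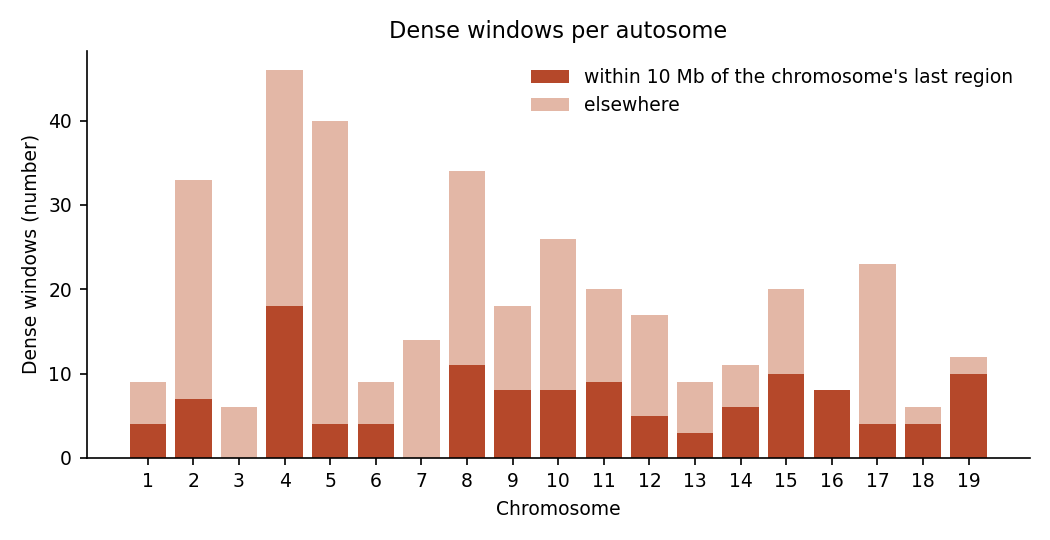
Dense windows per autosome (bars, number), with those within 10 Mb of the chromosome's last active region in dark red and those elsewhere in light red. Chromosome 4 held the most (46) and chromosomes 3 and 18 the fewest (6 each), and on chromosome 16 all 8 were near the end.

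Many dense windows were neighbours. There were 239 single windows, 34 pairs of adjacent windows, 7 runs of 3, 7 runs of 4 and 1 run of 5. The run of 5, at chr4:148700001-149200000, held 152 regions over Casz1, a zinc finger transcription factor, Pex14, a peroxisome import protein, and Kif1b, a kinesin motor, together with Dffa, Cort, Cenps and Pgd. Wwox, a tumour suppressor that spans a fragile site, lay over 2 of the runs of 4. It held the whole run at chr8:114500001-114900000, with 113 regions. The run at chr8:115000001-115400000, with 87 regions, reached past the end of the gene at 115352712. Chd7, a chromatin remodeller of neural crest and ear development, lay in a run with 109 regions at chr4:8700001-9100000. Camta1, a calmodulin-binding transcription activator, lay in a run with 102 regions at chr4:151200001-151600000. Msi2, an RNA-binding protein of neural stem cells, lay in a run with 99 regions at chr11:88300001-88700000. The other 2 runs of 4 held many genes. That at chr5:114100001-114500000 had 107 regions over 10 genes, among them Acacb, Ung, which removes uracil from DNA, and Mvk and Mmab. That at chr4:152300001-152700000 had 95 regions over 6 genes, among them Chd5, a neuronal chromatin remodeller, Kcnab2, a potassium channel subunit, and Rpl22.

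The 4 windows with the most regions, 38 each, differed in their gene content. The window chr10:127500001-127600000 held Stac3, Ndufa4l2, Shmt2, Nxph4 and part of Lrp1, an endocytic receptor of the low-density lipoprotein family, and its intervals numbered 35, 34, 30, 31, 25 and 22 in the 6 libraries. The window chr4:148900001-149000000 lay over Casz1 and Pex14, with 32, 27, 27, 32, 24 and 14 intervals. The windows chr8:114500001-114600000 and chr5:115900001-116000000 lay wholly inside Wwox and inside Cit, citron kinase, which acts in cytokinesis. Their intervals numbered 26, 33, 23, 28, 20 and 10 for Wwox and 31, 31, 25, 33, 20 and 18 for Cit. In these 4 windows KCl 3 had the fewest intervals, as it had over all windows.

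Each of these windows was a row of low regions with a few high ones. In the Lrp1 window the highest region, chr10:127568591-127569058, had heights of 56, 71, 53, 59, 49 and 32, against a window median of 16.8. In the Wwox window the highest, chr8:114588290-114588833, had 76, 97, 75, 94, 62 and 36, against a median of 14.4. In the Cit window, chr5:115940728-115941370 had 64, 79, 52, 73, 66 and 39, against a median of 15.9. In all 3 the untreated and KCl heights overlapped, and KCl 3 was the lowest library. The window of Plec, the cytoskeletal linker plectin, had 33 regions with Eppk1 and BC024139, and looked different. Its region chr15:76176370-76181991 was the longest of all dense-window regions (5622 bp) and had heights of 129, 144, 111, 137, 110 and 77. The next windows by number of regions were chr4:148700001-148800000 without a protein-coding gene (37), the Chd7 window chr4:8800001-8900000 (35) and the window of Hspg2, the basement membrane proteoglycan perlecan, with Ldlrad2 and Usp48 (35). After them came the Casz1 window chr4:148800001-148900000 (34) and the window of Rbm19, a nucleolar RNA-binding protein (34).

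**Figure D3:**
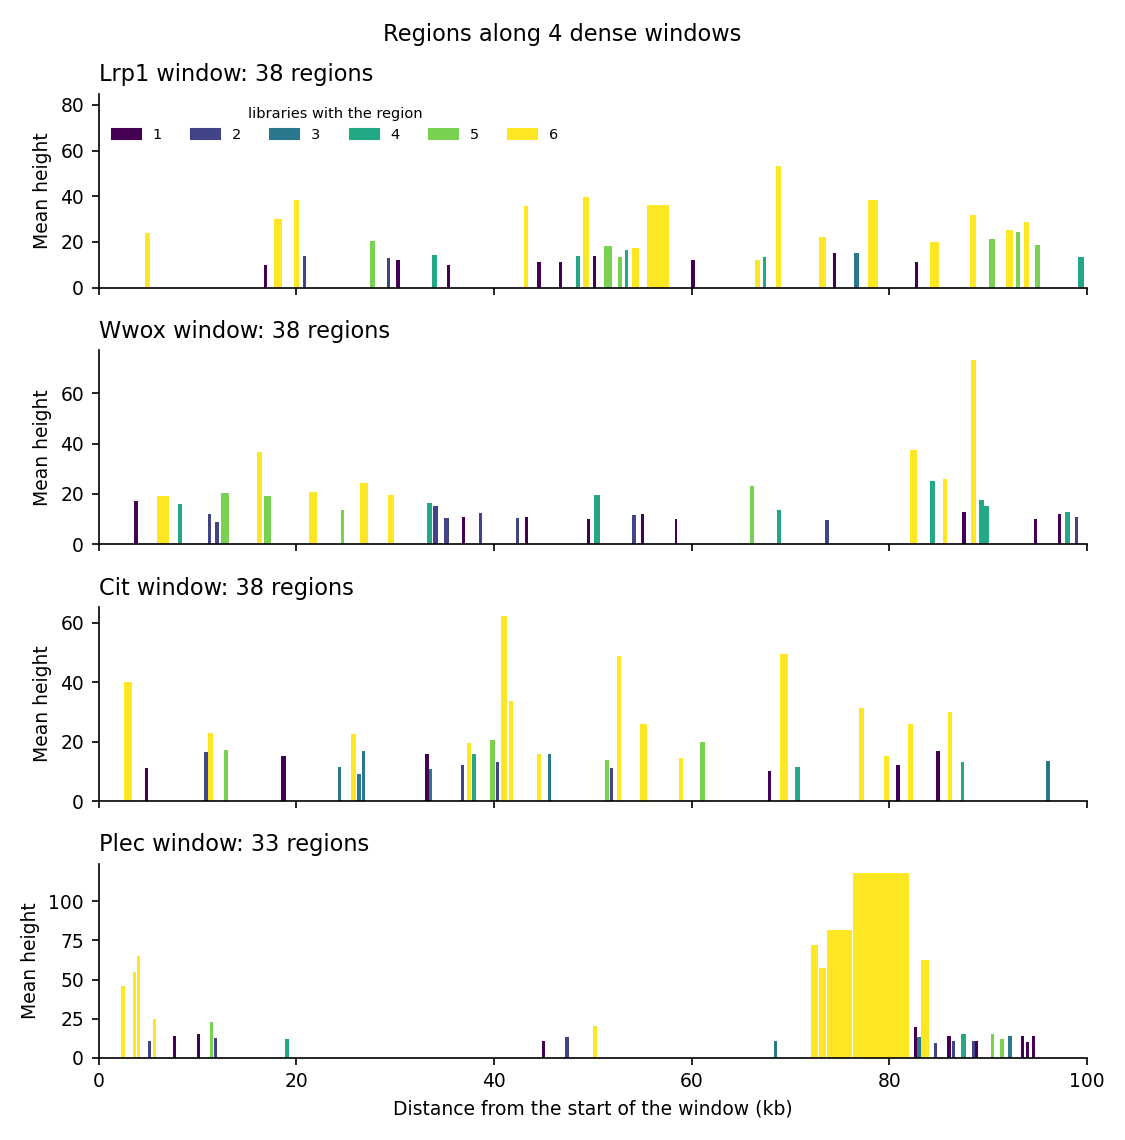
Active regions along 4 dense windows, by distance from the start of the window in kb (horizontal axis) and mean summit height over the libraries that called the region (vertical axis, a separate scale for each window), coloured by the number of libraries that called it. Short regions are drawn slightly wider than they are. The low regions are mostly calls of few libraries, and the region in Plec, 5622 bp long, stands out in height and length.

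Outside the first window of chromosome 9, described below, the highest dense-window region lay in Zc3h18, a nuclear RNA-processing factor. It is at chr8:122403041-122403677 and had heights of 156, 169, 124, 189, 142 and 107. The next lay in Zfhx3, a zinc finger homeobox factor, at chr8:108834454-108835214, with 136, 170, 115, 168, 134 and 90. Bcl11b, a transcription factor of forebrain projection neurons and dentate granule cells, had one of 2556 bp at chr12:107915169-107917724, with 141, 166, 116, 158, 122 and 87. In each of these regions the ranges of untreated and KCl libraries overlapped. Outside the first window of chromosome 9 a mean height of 100 or more was reached by 17 of 8335 dense-window regions.

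In all, 652 of the 20661 autosomal protein-coding genes (3.16%) overlapped a dense window, and 5.62% of the 2312 genes longer than 100 kb did. Of the 652, 71 held no dense-window region in their own body. Wwox held the most, 195 of its 230 regions, followed by Camta1 with 102 of 161, Msi2 with 91 of 93 and Zfhx3 with 73 of 128. Tshz2, a teashirt zinc finger factor, held 67 of 97, Chd7 62 of 64, Abcc4, a membrane transporter, 61 of 65, and Cit 59 of 63. Casz1 held all 58 of its regions in dense windows and Tcf7l2, the transcription factor at the end of Wnt signalling, all 57. The longest of these genes thus spread their regions also over sparser windows, whereas Casz1 and Tcf7l2 did not. Of the Wwox regions, 129, 121 and 110 were called in the untreated libraries and 142, 80 and 48 in the KCl libraries, and 41 in all 6. Msi2 had 69, 44 and 37 in the untreated and 68, 29 and 12 in the KCl libraries, and only 8 of its 91 regions were called in all 6. In Tcf7l2 most regions were low (median of 14.2), but that at chr19:55931264-55932106 had heights of 114, 139, 95, 140, 99 and 69.

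The 19 gene lists, of 613 distinct genes, were written with earlier results of these data known. The share of autosomal members that overlapped a dense window ran from 0% to 23.8%. Over all autosomal protein-coding genes it was 3.16%. Sarcomere genes, which build the contractile units of striated muscle, had the highest share, 5 of 21. Ttn, the giant elastic protein titin, held 29 regions, and Ryr1, the calcium release channel of skeletal muscle, 26. The cardiac myosins Myh6 and Myh7, neighbours in the same dense window and so not independent, held 11 and 7. Their mean heights reached 94.3 and 98.2. The Myh7 region at chr14:54979003-54979633 had 101, 115, 78, 126, 100 and 69. Its untreated and KCl heights overlapped.

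Chromatin and co-repressor genes followed with 8 of 41 (19.5%). Besides Camta1 and Casz1 these included Zfp423, a zinc finger factor of cerebellar development, with 28 regions and a highest mean height of 71.2, Tnrc18 with 17 and 58.2, the histone demethylase Kdm6b with 3 and 43.2, and Arid5b with 3 and 26.0. Kdm4b touched a dense window with no region of its own in it. The median length of this list's genes was 99067 bp, compared with 17491 bp for all protein-coding genes, and the part of gene length in the shares of the lists was not tested.

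Of the voltage-gated calcium and potassium channel genes, 6 of 43 (14.0%) overlapped a dense window. The calcium channel subunits Cacna1i and Cacna1g held 25 and 16 regions and Cacnb3 held 4. The potassium channel gene Kcnh3 held 6. The highest channel region, in Cacna1i at chr15:80394355-80394877, had heights of 84, 94, 89, 100, 69 and 42. Glutamate and GABA receptor genes had 3 of 37 (8.11%), with 23 regions in the kainate receptor gene Grik3, 19 in the metabotropic receptor gene Grm4 and 5 in the NMDA receptor gene Grin2c. Of 19 autosomal postsynaptic scaffold and adhesion genes only Nrxn2, a presynaptic neurexin, overlapped one, with 15 regions.

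Among developmental factors, 7 of 58 Pax, Sox, Gata, Runx, Tbx and Fox genes and their like (12.1%) overlapped a dense window. Sox5 held 43 regions, Foxp1 20, Pax6 19, Ebf2 13 and Foxp4 6, beside the 57 of Tcf7l2, while Sox2 held none. Homeobox genes had 4 of 54 (7.41%), namely Zfhx3, the cut-like factors Cux2 with 25 regions and Cux1 with 21, and Barhl2 with none. Notch, Wnt, Hedgehog and TGF-beta genes had 4 of 64 (6.25%), with 23 regions in Smad1, 14 in Ltbp4, 8 in Apc2 and 2 in Dhh. No member overlapped a dense window among 38 Hox genes, 34 collagens or 58 clustered protocadherins (all autosomal protein-coding genes: 3.16%). At that share lists of these lengths hold few overlapping genes or none, so the absence says little. Genes that lie in a cluster, as these protocadherins do, are also not independent.

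Among genes that mark cell types, those of neurons had the highest share, which rests on 3 genes. Their list also had the longest genes (median of 49297 bp), followed by the endothelial and mesenchymal list (44569 bp). The part of length was not tested. Of 19 neuron genes, 3 overlapped a dense window (15.8%), namely Bcl11b with 23 regions, Prox1, the factor of dentate granule cells, with 18, and Tubb3, a neuronal tubulin, with 1. Of 10 astrocyte genes Apoe did, with no region in its body. No overlap was found for 9 oligodendrocyte, 10 microglia or 10 endothelial and mesenchymal genes, lists too short for an absent overlap to be informative. Of 30 imprinted genes the neighbours Dlk1 and Meg3 did, with 4 and 9 regions. Of 24 autosomal germline genes Mov10l1 did, with 2 regions, and of 28 immediate early and Gadd45 genes Jund did, with none. Apart from Jund, no gene of the early transcriptional response to depolarisation on the list overlapped a dense window. That is 3.57% of the list, near the 3.16% of all autosomal protein-coding genes. At that share a list of this length holds few overlapping genes or none, so an absent overlap says nothing about its genes.

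The first window of chromosome 9, chr9:3000001-3100000, stood apart from the other 360. Its 31 regions lay between 2999959 and 3038500, at the start of the assembled sequence, with a median gap of 343 bp and no annotated gene. The median of their mean heights was 67.2, while no other dense window exceeded 20.3. The highest, chr9:3025005-3027886, had heights of 195, 213, 163, 219, 201 and 163, with overlapping groups. Of the 31 regions 8 had a mean height of 100 or more. Values that could rest on this window are given below also without it.

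In every library intervals were denser in the chosen windows than elsewhere, also when the library played no part in choosing them. Windows were chosen again from the other 5 libraries, which gave 259 to 356 windows, and the intervals of the remaining library were counted. The untreated libraries had 17.1, 16.9 and 13.9 intervals per chosen window, compared with 3.70, 3.72 and 3.08 in the other windows. The KCl libraries had 17.9, 12.1 and 7.26, compared with 3.97, 2.56 and 1.45. The ratio was between 4.51 and 5.01 in the 6 libraries. Of the chosen windows, 1 had no interval in KCl 3, and in the other libraries each had at least 1.

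Libraries differed in how many intervals they held. In the dense windows the untreated libraries had 5980, 5919 and 4894 intervals and the KCl libraries 6204, 4315 and 2628. KCl 1 thus had the most and KCl 3 the fewest, with the untreated libraries between. The means were 5598 ± 610 and 4382 ± 1789 (SD, n = 3 each), a difference of -1215 intervals (two-sided exact permutation test, p = 0.4, with 0.1 as the smallest p that 3 against 3 can give). By the share of regions called, KCl 1 was also highest and KCl 3 lowest outside the dense windows. The shares there were 63.9%, 64.6% and 53.8% in the untreated and 69.1%, 44.8% and 25.4% in the KCl libraries. Inside the dense windows these shares were 69.1%, 69.3% and 56.8%, and 72.5%, 49.9% and 30.5%.

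The share of a library's autosomal intervals that fell in dense windows was 6.99%, 6.89% and 6.83% in the untreated and 6.77%, 7.19% and 7.68% in the KCl libraries. KCl 2 and 3 were above and KCl 1 below all untreated libraries. The groups overlapped, with means of 6.91 ± 0.082 and 7.21 ± 0.458 (SD, n = 3 each). The difference of 0.307 percentage points exceeded the spread of the untreated but not that of the KCl libraries (exact permutation p = 0.4). When each library was reduced to its 34834 highest intervals, the number in the smallest library, the difference turned to -0.157 points (exact permutation p = 0.2). The 3 libraries with the fewest intervals in dense windows included both KCl libraries with a high share, and whether the number called sets the share was not tested.

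The mean height of the 2113 regions called in all 6 libraries was 33.1, 37.0 and 29.2 in the untreated and 36.7, 28.2 and 20.4 in the KCl libraries. The groups overlapped, with means of 33.1 ± 3.91 and 28.5 ± 8.17 (SD, n = 3 each). KCl minus untreated was -4.67 (exact permutation p = 0.4), and -0.649 without KCl 3. Relative to regions called in all 6 libraries elsewhere on the autosomes, dense-window regions were 1.08, 1.07 and 1.07 times as high in the untreated libraries and 1.06, 1.06 and 1.08 times in the KCl libraries. The ratio differed by -0.0101 between groups (exact permutation p = 0.3). Without the first window of chromosome 9 the ratios were 1.062, 1.057 and 1.051 against 1.037, 1.040 and 1.048. The groups then no longer overlapped, and the difference of -0.0148 had an exact permutation p of 0.1, the smallest possible.

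**Figure D4:**
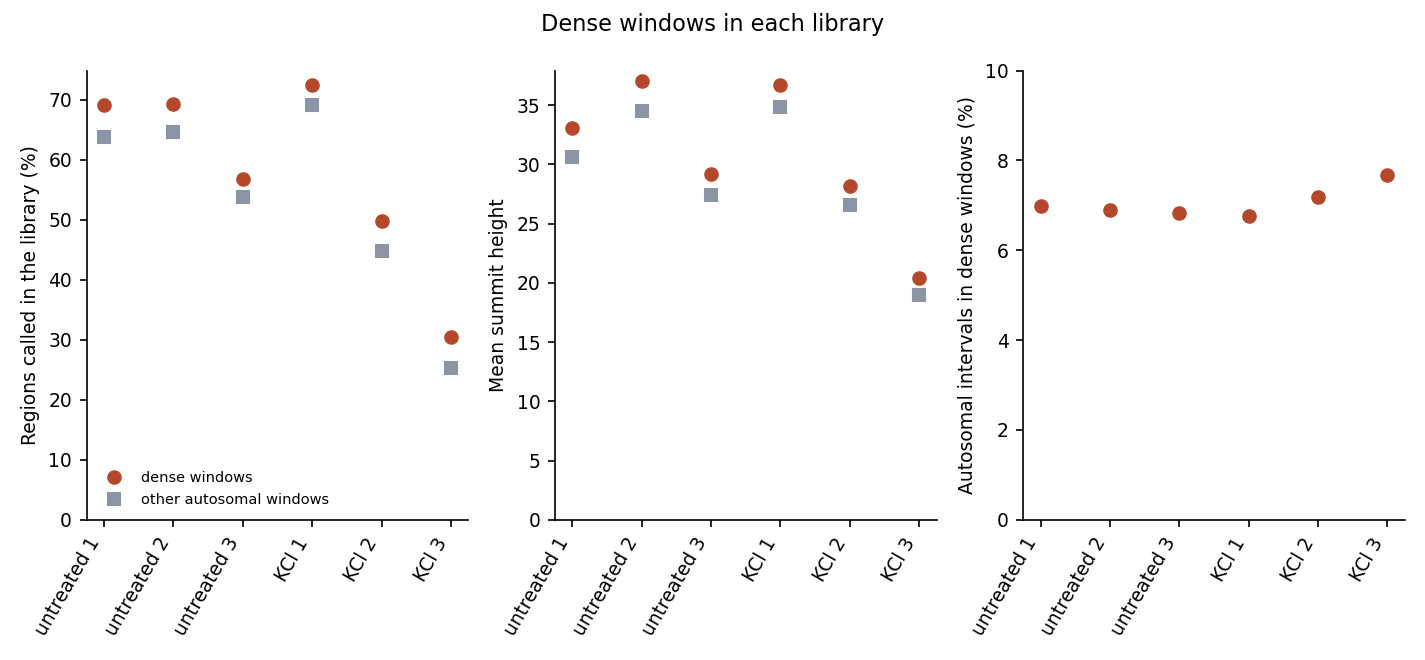
Values per library: share of regions called (left, %), mean summit height of regions called in all 6 libraries (middle), and share of autosomal intervals that lay in dense windows (right, %). In the first 2 plots dense windows (red) exceed other autosomal windows (grey) in each library, by 3.00 to 5.24 percentage points in the share called and by 1.44 to 2.53 in height, and KCl 3 is lowest in both.

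No single dense-window region changed detectably with KCl. Of the 2113 regions called in all 6 libraries, 1681 in 356 windows passed the filter on mean height and were tested among 20537 regions of all chromosomes. None passed an adjusted p of 0.05 in limma with Benjamini-Hochberg adjustment (0% of all tested regions), and the lowest adjusted p was 0.932. The 6685 regions not tested could not be assessed in this way. At an unadjusted p under 0.05, 24 dense-window regions were lower with KCl and 0 higher (all tested regions: 1.12% lower and 0% higher). The heights as deposited carry the lower level of KCl 3, and the median log2 change was -0.26 in dense windows and -0.25 over all tested regions. Without KCl 1, 376 of 1698 dense-window regions were lower at an unadjusted p under 0.05 (all tested regions: 20.8%), with none past the adjusted threshold in limma (0% of all tested regions, lowest adjusted p in dense windows of 0.177).

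After the median of each library was subtracted, which sets the middle of all tested regions near 0, 794 dense-window regions were higher and 887 lower with KCl. Their median was -0.009 on the log2 scale. Over all tested regions 10503 were higher and 10034 lower, and the difference between these splits was not tested. The median standard error of a single region was 0.20. An unadjusted p under 0.05 was reached by 36 higher and 40 lower regions (all tested regions: 1.97% higher and 1.67% lower), and none passed after adjustment in limma (lowest adjusted p of 1.00). In 71 regions all KCl libraries lay above all untreated ones, and in 82 below (all tested regions: 4.67% and 3.89%). Measured against the 1681 tested, these counts were near the background. Without the first window of chromosome 9 the numbers were 67 and 82.

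**Figure D5:**
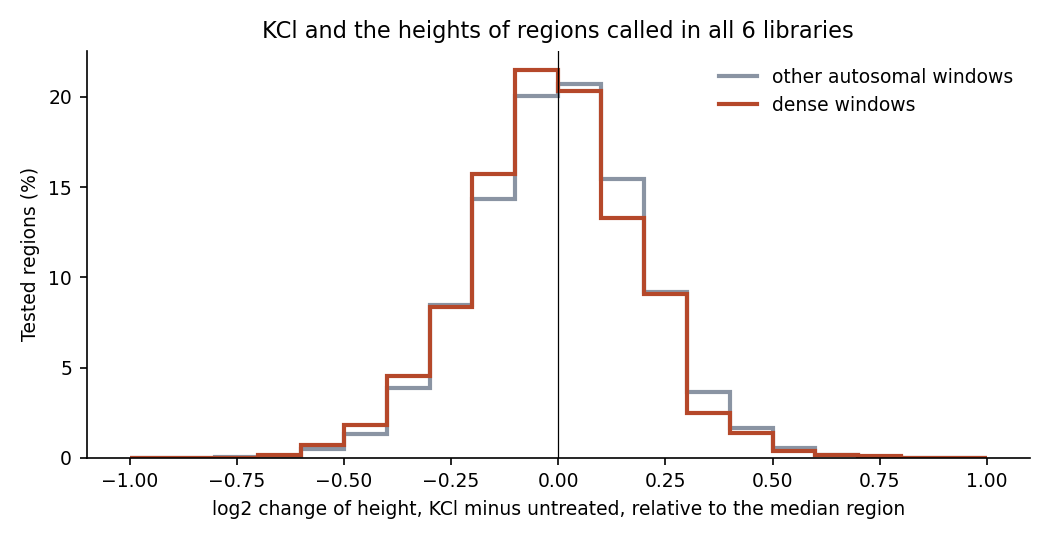
Distribution of the log2 change of summit height (KCl minus untreated, relative to the median region) over tested regions, as a percentage of the 1681 regions in dense windows (red) and of the 18545 in other autosomal windows (grey). The 2 curves nearly coincide, and 88.2% of regions in each lie within 0.3 of zero.

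The regions with the lowest p among the higher ones illustrate the size of the differences. An intergenic region at chr8:121387039-121387548 had heights of 22, 28 and 33 in the untreated and 44, 37 and 35 in the KCl libraries. All KCl heights were above all untreated ones, and the relative log2 change was 0.73 (SE 0.20, limma adjusted p = 1.00 after centring). A region in Tshz2, chr2:170010384-170010921, had 29, 21 and 28 against 35, 38 and 32, with a relative change of 0.68 (0.45 to 0.89 when single libraries were left out). A region in Ttc7, a scaffold of the phosphatidylinositol 4-kinase complex, chr17:87346050-87346743, had 17, 18 and 18 against 32, 29 and 16. Here KCl 3 fell below the untreated libraries and the other KCl libraries lay above them. The remaining 2 lay in the first window of chromosome 9. There all 18 tested regions were higher than the median region, by 0.04 to 0.31 on the log2 scale. An unadjusted p under 0.05 in limma was reached by 7 of them (all tested regions: 1.97% higher). The 18 lie within 1 stretch of 38542 bp and are not independent. None of the 18 passed the adjusted threshold.

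Among the lower ones, a region in Tshz1, a teashirt factor like Tshz2, at chr18:84077331-84077978, had 56, 68 and 52 in the untreated and 55, 36 and 20 in the KCl libraries, with a relative log2 change of -0.50 (SE 0.16, and -0.33 without KCl 3). The groups overlapped through KCl 1. In Sim2, a developmental transcription factor, chr16:94109152-94109969 had 37, 38 and 39 against 32, 24 and 12, with a change of -0.57. All KCl heights were below all untreated ones. An intergenic region in a window of the Tcf7l2 run, chr19:55715680-55716169, had 36, 33 and 30 against 23, 15 and 16. A region in Ablim1, an actin-binding protein, chr19:57301040-57301586, had 38, 42 and 35 against 31, 24 and 14. These 2 were also separate, with relative changes of -0.61 and -0.52, and each kept its sign when any single library was left out. The limma adjusted p was 1.00 after centring for each of these regions.

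Of the 10 genes with the most dense-window regions, most had more regions below than above the median region with KCl. In Wwox the 36 tested regions divided into 11 higher and 25 lower ones (median relative log2 change -0.08), and in Camta1 6 were higher and 15 lower (-0.08). Casz1 had 10 higher and 8 lower (0.01), Cit 8 and 9, Abcc4 7 and 8 (-0.02), and Zfhx3 7 and 11 (-0.02). Tshz2 had 4 higher and 9 lower (-0.11), Chd7 4 and 6 (-0.04), Tcf7l2 3 and 5 (-0.16), and Msi2 2 and 2 (0.01). By list, the median was 0.12 over 18 regions of channel genes (14 higher, 4 lower), 0.05 over 29 regions of sarcomere genes (16 and 13), -0.02 over 64 regions of chromatin genes (29 and 35) and -0.14 over 28 regions of Pax, Sox and related genes (12 and 16). Over all 1681 it was -0.009. No region of these lists passed the adjusted threshold in limma, and regions of a gene share their window and are not independent.

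Gains and losses of calls were counted as well. In dense windows 85 regions were called in all untreated and no KCl library (1.02% of 8366), and 3 in all KCl and no untreated library (0.0359%). Over all autosomal regions the shares were 1.02% and 0.0359%. Leaving out a library relaxes this criterion, since only 2 libraries of its group remain. Without KCl 3 there were 101 regions called in the untreated libraries alone and 65 in the KCl libraries alone (1.21% and 0.777%, compared with 1.13% and 0.827% of all autosomal regions). Without KCl 1 there were 431 and 9 (5.15% and 0.108%, compared with 5.23% and 0.0680% of all autosomal regions). Without KCl 2 there were 142 and 13 (1.70% and 0.155%, compared with 1.62% and 0.154%). Without untreated 1, 2 or 3 there were 159 and 11, 176 and 15, and 261 and 8. These were 1.90% and 0.131%, 2.10% and 0.179%, and 3.12% and 0.0956%. Over all autosomal regions the shares were 2.24% and 0.103%, 2.23% and 0.147%, and 3.20% and 0.0879%.

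The number of intervals per window was also compared, as intervals per 10000 autosomal intervals of the library. Of 11125 windows with 5 or more regions none passed an adjusted p of 0.05 in limma (0%), and so none of the 361 dense windows did (lowest adjusted p of 0.945). With the replicate number as a block the lowest was 0.565. At an unadjusted p under 0.05, 4 dense windows were higher and 9 lower with KCl (all tested windows: 1.38% higher and 3.24% lower). All KCl libraries lay above all untreated ones in 13 and below in 16 (all tested windows: 4.09% and 5.36%). The median log2 change was 0.04, with a median SE of 0.14.

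Apart from the first window of chromosome 9, the windows with the lowest p held at most 18 intervals in a library. In the Uaca window, chr9:60800001-60900000, which holds an apoptosis regulator with ankyrin repeats, there were 13, 15 and 14 intervals in the untreated and 17, 15 and 13 in the KCl libraries. Per 10000 intervals these were 1.52, 1.75 and 1.95 against 1.85, 2.50 and 3.80, so the groups overlapped (log2 change 0.41, SE 0.16, and 0.21 without KCl 3). The window of Rasgrp2 and Nrxn2, chr19:6400001-6500000, had 12, 14 and 10 against 18, 14 and 7, with 1.40, 1.63 and 1.40 against 1.96, 2.33 and 2.05 per 10000. After scaling its KCl values all lay above the untreated ones (log2 change 0.33, SE 0.13, limma adjusted p = 0.945). The third of the higher windows was the first of chromosome 9, with 31, 31 and 22 intervals against 31, 27 and 22 (log2 change 0.35, SE 0.16). Without KCl 3 its change was 0.15 and without KCl 1 0.53.

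Of the lower windows, that inside Wwox at chr8:115000001-115100000 had 13, 12 and 8 intervals against 12, 3 and 2 (log2 change -0.41, SE 0.15). That of Dok5, an adaptor of receptor tyrosine kinases, chr2:170800001-170900000, had 12, 12 and 11 against 17, 3 and 1 (-0.47, SE 0.18), and that inside Msi2, chr11:88400001-88500000, had 16, 14 and 9 against 15, 5 and 2 (-0.38, SE 0.16). In all 3, KCl 1 lay within or above the untreated range while KCl 2 and 3 had few. The limma adjusted p was 0.945 for each. When KCl 1 was left out, the Dok5 window passed the threshold (log2 change -0.81, limma adjusted p = 0.00681), as the only dense window to do so in any of the 6 analyses that left out a library. In that analysis 11 of all 11125 tested windows passed (0.0989%). Without KCl 3 the change of the Dok5 window was -0.24 and that of the Msi2 window -0.23, and without KCl 1 the latter was -0.59.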

How the data were processed

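MeDIP-seq libraries of cultured neurons were analysed from the tracks deposited by the authors. The submitters' processing notes name BWA, SICER and the build mm10 but no versions, and no source used here describes further steps. Per the file headers there were 13 tracks: called intervals and summits for each of 6 libraries, and the active regions. The summit heights that the authors deposited are integers from 6 to 421, and any scaling between libraries is not stated. The depth per library is unknown, so no counting interval is given. Of the autosomal active regions, 130856 equalled a merge of the 6 interval tracks.

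The dense windows, gene lists and named items were chosen with earlier results of these data known. The rule named the 10 windows with the most regions and their highest region, the 5 highest regions, the 10 genes with the most regions, list members in dense windows, the longest runs, covered promoters, and the 5 regions and 3 windows with the lowest p in each direction. Genes are protein-coding RefSeq genes of GRCm38.p6, with Meg3 added as an imprinted non-coding gene, and all 616 list entries matched (9 on X or Y). Strand and exons of genes were not used. Some items that the rule names are not reported here.

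A region took its highest summit per library. Heights of regions called in all 6 libraries with a mean at or above the 25th percentile (18.7) were tested as log2(height + 1), and windows with 5 or more regions as log2(intervals per 10000 + 1), with limma 3.58.1 in R 4.3.3 (trend, two-sided, Benjamini-Hochberg, adjusted p threshold 0.05). Changes on these scales understate those of low values. Values per library were compared with exact permutation tests in scipy 1.17.1. The limma steps were tested on simulated data. Libraries with the same replicate number deviated together over regions (correlations of 0.113, 0.108 and 0.114, against -0.088 to -0.014 between numbers). The deviations were taken from the mean of each group. The negative values thus largely follow from the positive ones and add no separate evidence of pairing. The replicate block and the tests within replicate pairs took the numbers to pair the libraries. The main limma and permutation tests did not use this pairing. What a replicate number stands for is not in the labels.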

Additional observations from a re-analysis of the deposited data

How the results depend on the processing

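The count of dense-window regions changed with KCl was 0 under every alternative tried: a pseudocount of 5, no height filter, median centring, the replicate block (lowest adjusted p of 0.857, and 0.461 with centring), windows of at least 15 or 25 regions, windows shifted by 50 kb, and leaving out each library (0 to 0). The count of dense windows changed was 0, also with the replicate block, except that leaving out libraries gave 0 to 1. The difference in intervals was -3616 with windows of at least 15 regions, which hold more intervals by construction, -57.7 when each library was reduced to the same number of highest intervals, and -2126 to -338 when libraries were left out. The difference in the percentage of intervals was -0.157 at equal numbers, where the cause was not tested, 0.701 and 0.130 with windows of at least 15 and 25 regions, and 0.0731 to 0.531 when libraries were left out. Leaving out libraries gave -8.82 to -0.649 for the mean height difference and -0.0163 to -0.00587 for that of the height ratio, which was -0.0186 with medians in place of means. Within replicate pairs each of these 4 differences had an exact permutation p of 0.5, with 0.25 as the smallest possible, and the block changed no call. Leaving out the first window of chromosome 9, or single libraries from the counts of gained and lost calls, was chosen after seeing the data. The unknown depth, the input, not used here, and calls made separately in each library limit what low regions can show. Very high regions, as in the first window of chromosome 9, were not compared with the input either.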
